A study of Mus musculus with 8 samples.

Results

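The AP-1 and immediate early genes described here were 10 genes, taken by name from the 29234 gene symbols of the deposited table: the FOS subunits Fos, Fosl1 and Fosl2, the JUN subunits Jun, Junb and Jund, the related factor Atf3, the zinc finger factor Egr1, and the response genes Ier2 and Ier3. They were measured by RNA sequencing in mouse colon organoids, which are epithelial structures grown from colon crypts in a basement membrane gel. All organoids were of WT genotype and received filtered fecal supernatant at 4 mg/mL, either from healthy mice (FS_CTR, 4 libraries) or from mice that had drunk dextran sodium sulfate, a compound that injures the colon epithelium (FS_DSS, 4 libraries), with a labelled time of 5 days. The methods describe male C57BL/6N mice and a pooling of their fecal pellets ahead of the preparation of supernatant. Organoids without supernatant were not part of the comparison. No source used here says whether the 4 libraries of a condition came from separate cultures or animals, so each p value is set against a spread between libraries that may be technical.

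AP-1 is a transcription factor built as a dimer of a JUN protein with a FOS, ATF or second JUN protein. Its genes belong to the immediate early genes, which growth factors, cytokines and stress switch on within minutes without new protein synthesis, through MAP kinases that act on SRF and its ternary complex partners at the promoter. Their transcripts are short-lived, in part because AU-rich elements in the 3′ untranslated region (UTR) recruit decay factors. In the intestinal epithelium these genes are known for their response to injury, growth signals and microbial products. All values below were taken once, after days of exposure, so they describe levels at that time and not the first response to the supernatant. The paper describes supernatant added more than once with renewed medium. It also describes cold washes and an incubation that freed the organoids from the gel before freezing. Whether these steps moved the levels was not tested.

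Short stretches upstream of 4 members are shown because they hold the elements through which this class of gene is known to be read, and because the mean levels of Fos, Junb and Ier3 were above those of FS_CTR organoids in FS_DSS organoids while that of Ier2 was below. The sequences came from the GRCm39 genome and are written 5′ to 3′ on the strand of the gene. Capitals mark the CArG box, at which SRF binds, in Fos, the CRE core TGACGT in Fos, the full CRE TGACGTCA in Ier2, and TATAA in Fos, Junb and Ier3. Fos is shown from position -320 to -21 relative to its start site on chromosome 12, and the other 3 genes from -100 to -1.
Fos chr12:85520338-85520637 (+): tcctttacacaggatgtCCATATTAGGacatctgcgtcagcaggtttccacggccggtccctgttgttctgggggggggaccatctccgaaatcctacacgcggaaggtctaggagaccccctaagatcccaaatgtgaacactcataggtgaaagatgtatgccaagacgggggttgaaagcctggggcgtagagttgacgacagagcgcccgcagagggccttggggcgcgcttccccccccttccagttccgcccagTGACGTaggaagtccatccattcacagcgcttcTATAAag
Junb chr8:85705348-85705447 (-): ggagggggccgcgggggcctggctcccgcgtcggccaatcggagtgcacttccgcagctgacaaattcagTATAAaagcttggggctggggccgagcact
Ier3 chr17:36132468-36132567 (+): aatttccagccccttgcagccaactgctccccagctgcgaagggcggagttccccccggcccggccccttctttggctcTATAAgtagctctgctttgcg
Ier2 chr8:85389484-85389583 (-): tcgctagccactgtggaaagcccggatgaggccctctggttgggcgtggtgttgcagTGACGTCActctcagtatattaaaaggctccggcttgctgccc

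Both strands of the 500 bases around each start site (from 450 bases before it to the 50 bases that begin with it) were searched in 9 of the members, and in 11616 tested genes as background. Egr1 was not searched. The CArG box was found in 1 member, Fos, against 2.47% of promoters, and lay at positions -303 to -294 from the Fos start site. The full CRE TGACGTCA was found in Jund and Ier2, against 3.43% of promoters. The shorter TGACGT, which every full CRE contains, was found in Fos, Jun, Jund, Atf3 and Ier2, or 5 members, against 13.9%. The AP-1 site TGANTCA was found in 0 of the 9 windows, against 9.9% of promoters, and the EGR site GCGNGGGCG in Jund alone, at 3 places, against 9.96%. On the strand of the gene, TATAA lay within the 50 bases before the start in Fos, Junb, Jund and Ier3, against 2.63% of promoters. The TGACGT and TATAA searches were added after these sequences had been seen, and a match describes letters only.

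The AU-rich elements of the transcripts are shown for Fos and Ier3, which have 2 and 4 copies of TATTTAT, in 30 bases of each 3′ UTR. Fosl2, which is not shown, has 3 copies. Capitals mark TATTTAT.
Fos 3′ UTR: gtgttttcaattTATTTATtaagatggatt
Ier3 3′ UTR: ctaattaaTATTTATgTATTTATgtatatc

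TATTTAT was present in the 3′ UTR of 7 of the 10 members, against 32.6% of 11516 tested genes with an annotated 3′ UTR. It was absent from those of Junb, Egr1 and Ier2. The pentamer ATTTA occurred 8.16 times per kb in Ier3, 4.91 times in Fos and 4.12 times in Junb, where the median tested gene had 1.32 per kb. Ier2, the one member with a lower mean in FS_DSS organoids, had 0 copies in its 755-base 3′ UTR. The remaining members had 3.24 (Jun), 2.53 (Atf3), 1.88 (Jund), 1.72 (Fosl2), 1.63 (Egr1) and 1.57 (Fosl1) per kb. Whether these elements bear on the levels was not tested. Only the strand of the transcript was searched, and UTR lengths were those of the canonical transcript in GENCODE.

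In the GENCODE annotation of GRCm39, Fos (chr12:85520658-85524047), Fosl1 (chr19:5497575-5505974), Fosl2 (chr5:32292707-32315186) and Atf3 (chr1:190902493-190950241) have 4 exons in their canonical transcript. Jun (chr4:94937271-94940459), Junb (chr8:85701113-85705359), Jund (chr8:71151599-71153265) and Ier2 (chr8:85387960-85389483) have 1 exon and thus no intron, and Ier3 (chr17:36132568-36133815) has 2. Antisense noncoding genes are annotated over Jun, Junb, Jund, Fosl1, Fosl2, Atf3 and Ier3 but were not in the count table.

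The libraries held between 18968416 and 27035243 counts. FS_CTR replicates 3 and 4 stood apart from the rest, with 38.7% and 33.3% of their counts from mitochondrially encoded genes against 2.83% to 6.98% in the other 6 libraries. Levels are therefore given as CPM, counts scaled to a common library total, after TMM scaling, whose factors were 0.6405 and 0.6777 in those libraries and 1.127 to 1.183 in the others, and values without them are given beside those that they moved most. Epithelial markers were expressed in both conditions, with Krt8 at a mean of 7130 CPM in FS_CTR and 7710 CPM in FS_DSS organoids and Vil1 at 1040 and 1060 CPM, while Epcam was low at 22.8 and 21.5 CPM. Of the 14 epithelial markers, 4 were lower and 1 higher at an unadjusted p under 0.05, against 13.4% and 10.6% of all tested genes. The lower ones included the stem cell marker Lgr5 (23.1 and 9.03 CPM), Slc26a3 (113 and 63.1 CPM) and Cdx1 (153 and 96.9 CPM). Cdx1 was called lower in DESeq2 (adjusted p = 0.0154) and in an edgeR fit blocked on replicate number (adjusted p = 0.0397). Cdh1, at 1430 and 2030 CPM, was called higher in DESeq2 (adjusted p = 0.0157). The part of these markers in the results on the members was not tested. Markers of other cells were low, with the 9 mesenchyme markers, led by Pdgfrb, summing to 2.03 to 5.85 CPM per library, the immune markers, led by Csf1r, to 7.36 to 17.5 CPM, the endothelial markers, led by Pecam1, to 0.558 to 1.48 CPM, and Emcn at 0 in all 8 libraries. The neuron and glia markers summed to 14.7 to 37.1 CPM and were higher in FS_DSS organoids. Nearly all of that came from Ret, at 16.2 CPM in FS_CTR and 27.4 CPM in FS_DSS organoids (DESeq2 adjusted p = 0.00804), while Sox10 was at 0 in 7 libraries. The part of these values in the results on the members was not tested.

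All 10 genes passed the filter on low counts, their smallest count being 281, for Fosl1 in FS_CTR replicate 3. Their levels were ordered by CPM per kb of canonical transcript, averaged over all 8 libraries. Jund was highest at 214 CPM per kb (155 to 266 over the libraries), followed by Junb at 152 CPM per kb (120 to 188) and Ier3 at 110.0 CPM per kb (74.5 to 177). Ier2 had 65.9, Fos 47.3, Jun 38.5 and Fosl2 35.5 CPM per kb, and Atf3, Fosl1 and Egr1 had 16.4, 13.7 and 12.2 CPM per kb. The ranges over libraries overlapped between all neighbours in this order except Ier2 with Fos, whose libraries ranged from 55.9 to 74.8 and from 38.8 to 55.6 CPM per kb.

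The comparison of FS_DSS with FS_CTR organoids asked whether the supernatant of colitic mice left these genes at other levels than the supernatant of healthy mice. Of the 10 members, 9 had a higher fitted mean in FS_DSS organoids, Ier2 being the exception, where 47.5% of 12729 tested genes did. The increases were modest, with a median Log2(FC) of 0.32 over the members and -0.021 over all tested genes, whose 10th and 90th percentiles were -0.57 and 0.40. At an adjusted p under 0.05 in the quasi-likelihood F test of edgeR, 0 members were higher and 0 lower, and 0.0% of tested genes were called in either direction. At an unadjusted p under 0.05, 4 members (Fos, Junb, Egr1 and Ier3) were higher, against 10.6% of tested genes, and 0 were lower, against 13.4%. In DESeq2, Junb and Ier3 rose at an adjusted p under 0.05, as did 5.04% of tested genes. At that level limma-voom called 0 members higher, against 0.0% of tested genes. At an unadjusted p under 0.05 it called 4 higher, against 10.3%.

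The 2 conditions did not overlap for Junb, Egr1 and Ier3, each higher in all 4 FS_DSS libraries than in every FS_CTR library, against 7.41% of tested genes, and 0 members lay wholly below, against 7.58%. At the thresholds of the study (unadjusted p under 0.05 and a Log2(FC) of at least 0.58 in size), 1 member, Ier3, was higher, against 2.56% of tested genes, and 0 were lower, against 6.46%. Without FS_CTR replicates 3 and 4, 6 members (Fos, Fosl1, Fosl2, Junb, Jund and Ier3) were higher at an unadjusted p under 0.05 against 9.42% of genes, and 0 at an adjusted p under 0.05, against 0.0%. Of these 6, 2 (Fosl1 and Ier3) also passed the thresholds of the study, for which the share of all genes in this fit is not given. As a share of all counts from nuclear genes, the 10 members held 0.144% to 0.152% in FS_CTR and 0.167% to 0.209% in FS_DSS libraries. After TMM scaling their summed levels overlapped, at 1202 to 1498 CPM in FS_CTR and 1384 to 1761 CPM in FS_DSS libraries. No background over other genes is given for either measure. These are whole-organoid RNA measurements, in which fewer cells expressing a gene and less RNA per cell cannot be told apart.

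**Figure D1:**
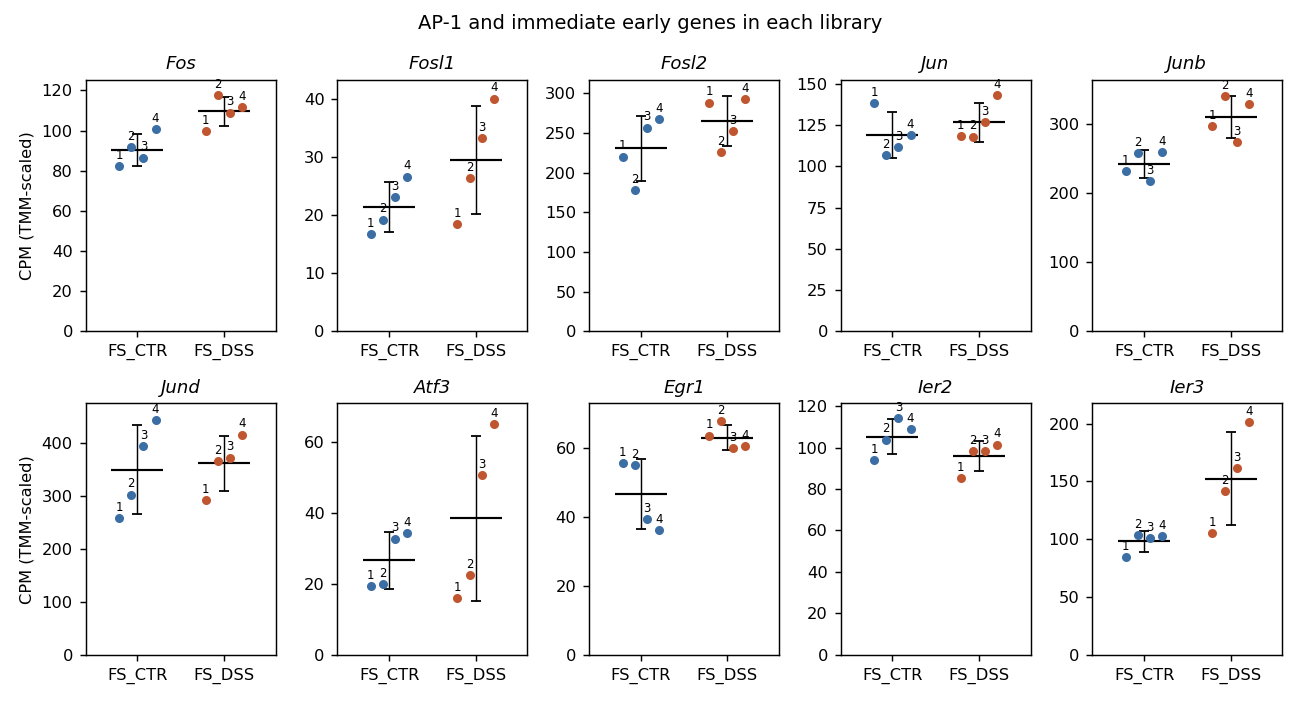
CPM after TMM scaling of each of the 10 genes (vertical axes from 0, one scale per gene) in the 4 FS_CTR and 4 FS_DSS libraries, with points numbered by replicate, horizontal lines at the group mean and bars of 1 SD. Junb, Egr1 and Ier3 show no overlap between the conditions, and in Atf3 the libraries numbered 3 and 4 lie above those numbered 1 and 2 in both conditions.

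Among the FOS subunits, Fos itself, the partner that gives AP-1 its strongest activity with JUN, measured 82.1, 91.9, 86.5 and 100.6 CPM in FS_CTR replicates 1 to 4. In FS_DSS replicates 1 to 4 it measured 99.7, 117.6, 109.0 and 111.8 CPM. In Fos, 3 of the 4 FS_DSS libraries lay above every FS_CTR library, and FS_DSS replicate 1 lay just under FS_CTR replicate 4. The means were 90.3 ± 7.95 and 109.5 ± 7.47 CPM (SD, n = 4), with a Log2(FC) of 0.28 and a standard error (SE) of 0.091 in edgeR (adjusted p = 0.125). Fos was above its FS_CTR mean in 4 of 4 FS_DSS libraries, and its Log2(FC) stayed between 0.24 and 0.34 with any 1 library left out.

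Fosl1, which encodes FRA1, a subunit known for its role in epithelial migration and invasion, measured 16.7, 19.2, 23.1 and 26.6 CPM in FS_CTR replicates 1 to 4. Its values in FS_DSS replicates 1 to 4 were 18.4, 26.4, 33.2 and 40.1 CPM, so that the conditions overlapped over much of their range. The means were 21.4 ± 4.37 and 29.5 ± 9.29 CPM (SD, n = 4), with a Log2(FC) of 0.47 (SE 0.24, edgeR adjusted p = 0.267). Libraries of the same replicate number deviated together from their group means, with correlations of 0.154 to 0.352, as did some libraries of different numbers. A block on the number was chosen on these same data, so its smaller SEs are not independent of them. With this block in edgeR the SE of Fosl1 became 0.10 around a Log2(FC) of 0.43 (adjusted p = 0.0711). With that block, 5 members were higher at an unadjusted p under 0.05, Fosl1 being the one added, against 14.7% of tested genes, and 0 at an adjusted p under 0.05, against 0.534%. Without FS_CTR replicates 3 and 4 the Log2(FC) of Fosl1 was 0.72 (SE 0.29, edgeR adjusted p = 0.239), and with 1 library left out it ran from 0.28, without FS_DSS replicate 4, to 0.64, without FS_DSS replicate 1.

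Fosl2, which encodes FRA2, measured 220.5, 177.8, 257.0 and 267.2 CPM in FS_CTR replicates 1 to 4 and 288.5, 226.2, 252.1 and 292.5 CPM in FS_DSS replicates 1 to 4. The conditions overlapped, and FS_CTR replicates 3 and 4 were the highest of their group. Its Log2(FC) was 0.20 (SE 0.15, edgeR adjusted p = 0.419), and 0.41 (SE 0.15, adjusted p = 0.201) without those 2 libraries. With 1 library left out it ran from 0.10, without FS_CTR replicate 2, to 0.28.

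Among the JUN subunits, Junb, an AP-1 subunit induced together with Fos, measured 231.7, 257.3, 217.0 and 258.6 CPM in FS_CTR replicates 1 to 4. Its values in FS_DSS replicates 1 to 4 were 296.8, 339.9, 273.5 and 328.3 CPM, all above the highest FS_CTR library. The means were 241.1 ± 20.3 and 309.6 ± 30.2 CPM (SD, n = 4), a Log2(FC) of 0.36 (SE 0.11, edgeR adjusted p = 0.103, DESeq2 adjusted p = 0.0161). Junb was also the most even member: FS_DSS exceeded FS_CTR by 0.36, 0.40, 0.33 and 0.34 on the log2 scale in the libraries numbered 1, 2, 3 and 4. It differed little without FS_CTR replicates 3 and 4, at a Log2(FC) of 0.34. The Junb locus on chromosome 8 overlaps Prdx2 on the opposite strand, and the strand setting of the counting is not given in the sources used here, so reads of the overlapping part could not be assigned with certainty. The same holds for Fosl1 and the overlapping Ccdc85b.

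Jun, the founding JUN subunit, measured 138.3, 107.0, 111.9 and 119.0 CPM in FS_CTR replicates 1 to 4 and 118.5, 118.1, 127.0 and 143.5 CPM in FS_DSS replicates 1 to 4. FS_CTR replicate 1 lay above 3 of the 4 FS_DSS libraries, and the Log2(FC) was 0.09 (SE 0.11, edgeR adjusted p = 0.618), or 0.03 to 0.17 with 1 library left out, the highest without FS_CTR replicate 1 and the lowest without FS_DSS replicate 4.

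Jund, the subunit that is expressed in resting cells as well as stimulated ones, measured 259.0, 303.1, 395.5 and 443.7 CPM in FS_CTR replicates 1 to 4. It measured 292.0, 366.3, 373.3 and 416.5 CPM in FS_DSS replicates 1 to 4, within the range of FS_CTR organoids. In both conditions the libraries numbered 3 and 4 lay above those numbered 1 and 2. Its Log2(FC) of 0.05 (SE 0.18, edgeR adjusted p = 0.891) turned negative, to between -0.07 and -0.01, when FS_CTR replicate 1, FS_CTR replicate 2 or FS_DSS replicate 4 was left out, and was 0.37 without FS_CTR replicates 3 and 4 (adjusted p = 0.246).

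Atf3, a stress-induced factor that pairs with JUN proteins, was the most variable member, at 19.4, 19.9, 32.9 and 34.5 CPM in FS_CTR replicates 1 to 4 and 16.0, 22.5, 50.7 and 65.1 CPM in FS_DSS replicates 1 to 4. The libraries numbered 3 and 4 lay above all of those numbered 1 and 2 whatever the condition, and the difference between same-numbered libraries ran from -0.28 for number 1 to 0.92 for number 4 on the log2 scale. The Log2(FC) was 0.54 with an SE of 0.43 (edgeR adjusted p = 0.456), 0.36 with the block (SE 0.20, adjusted p = 0.267), and 0.97 without FS_CTR replicates 3 and 4 (SE 0.56, adjusted p = 0.355). With 1 library left out it ran from 0.16, without FS_DSS replicate 4, to 0.80, without FS_DSS replicate 1. No difference in Atf3 between the conditions was detectable against this spread.

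Egr1, a zinc finger transcription factor that growth signals induce through SRF, measured 55.6, 55.0, 39.4 and 36.2 CPM in FS_CTR replicates 1 to 4. Its FS_DSS values were 63.4, 67.7, 59.7 and 60.4 CPM in replicates 1 to 4, all above the FS_CTR libraries. The means were 46.5 ± 10.2 and 62.8 ± 3.64 CPM (SD, n = 4), a Log2(FC) of 0.43 (SE 0.15, edgeR adjusted p = 0.139). FS_CTR replicates 3 and 4, the libraries with the high mitochondrial share, were the lowest. Without them the Log2(FC) of Egr1 was 0.18 (SE 0.087, edgeR adjusted p = 0.282), no longer at an unadjusted p under 0.05.

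Of the response genes, Ier3, which encodes a small protein known to modulate survival and ERK signaling and is a target of NF-κB, measured 84.8, 103.7, 101.0 and 102.8 CPM in FS_CTR replicates 1 to 4. In FS_DSS replicates 1 to 4 it measured 105.5, 141.8, 161.3 and 201.3 CPM. The lowest FS_DSS library exceeded the highest FS_CTR library by a narrow margin, and the other FS_DSS libraries lay well above. The means were 98.1 ± 8.92 and 152.5 ± 39.9 CPM (SD, n = 4), the largest Log2(FC) among the members at 0.64 (SE 0.18, edgeR adjusted p = 0.098, DESeq2 adjusted p = 0.0172). With any 1 library left out it stayed between 0.47 and 0.78, and it was 0.70 without FS_CTR replicates 3 and 4.

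Ier2, a nuclear protein gene of the same early response, measured 94.0, 103.8, 114.0 and 108.9 CPM in FS_CTR replicates 1 to 4 and 85.2, 98.1, 98.2 and 101.4 CPM in FS_DSS replicates 1 to 4. Each FS_DSS library lay below the FS_CTR library of its number and below the FS_CTR mean, but the conditions overlapped. Its Log2(FC) was -0.14 (SE 0.092, edgeR adjusted p = 0.382), and 0.22 when libraries were scaled by their totals alone, a scaling that moved the median of all genes to 0.305. Relative to that median Ier2 stood at -0.09, and with 1 library left out its Log2(FC) ran from -0.19 to -0.08.

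**Figure D2:**
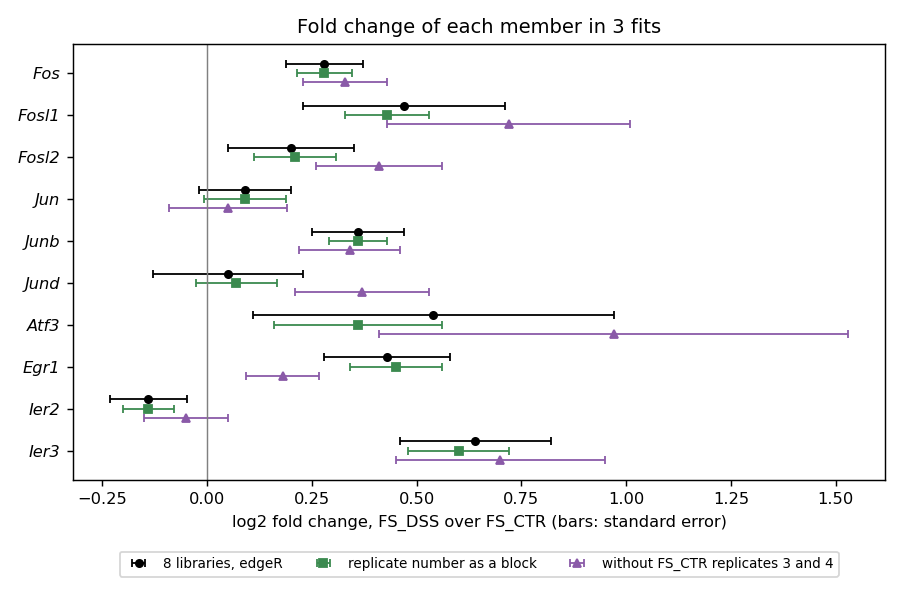
Log2(FC) of FS_DSS over FS_CTR (horizontal axis) for each of the 10 genes in 3 edgeR fits, with bars of 1 standard error: all 8 libraries, the replicate number as a block, and without FS_CTR replicates 3 and 4. Each gene has a shorter bar with the block than in the first of these fits, as for Fosl1 (0.10 against 0.24). Egr1 has its shortest bar without the 2 libraries (0.087). Without them Egr1 also lies closer to 0 (0.18 against 0.43) while Jund lies further from it (0.37 against 0.05).

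The members thus fell into different patterns over the libraries. Fos, Fosl1, Junb, Egr1 and Ier3 were higher in FS_DSS than in FS_CTR in all 4 same-numbered comparisons. For Ier3 these differences were 0.31, 0.45, 0.67 and 0.97 on the log2 scale for numbers 1, 2, 3 and 4, for Egr1 0.19, 0.30, 0.60 and 0.74, and for Fosl1 0.14, 0.45, 0.52 and 0.59. Fos had its smallest difference at number 4, at 0.15. Ier2 was lower in all 4, by -0.22 to -0.08. Fosl2, Jun, Jund and Atf3 differed in sign between the numbers.

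**Figure D3:**
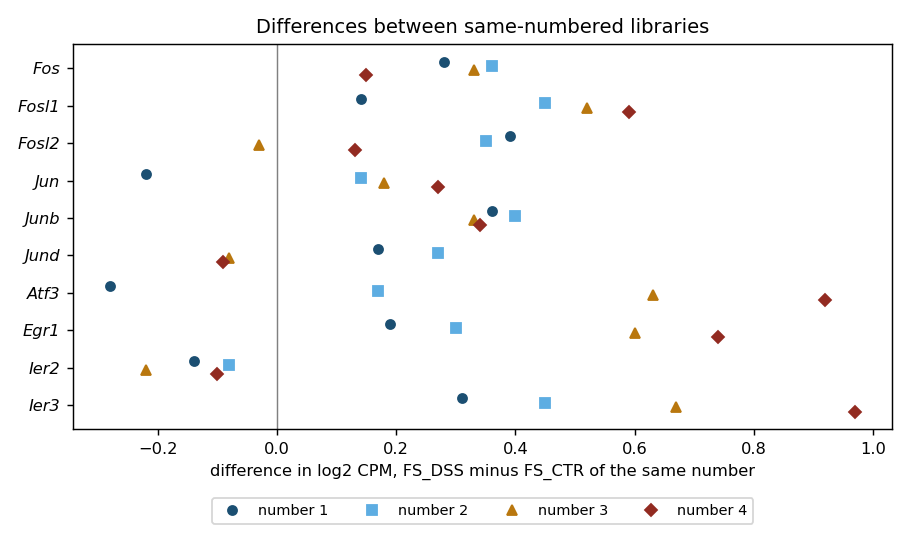
Difference in log2 CPM between the FS_DSS and the FS_CTR library of the same replicate number (horizontal axis), with 4 points for each of the 10 genes. Junb has its 4 points close together, between 0.33 and 0.40, while those of Atf3 spread from -0.28 to 0.92.

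The genes around the members were described from lists by their counts. Of 36 tested other immediate early genes, 30 were higher in FS_DSS organoids with a median Log2(FC) of 0.36, and at an unadjusted p under 0.05 those above numbered 14 and those below 0, against 10.6% and 13.4% of all tested genes. In 8 of them all FS_DSS libraries lay above all FS_CTR libraries, against 7.41%. At an adjusted p under 0.05, 0 were called by edgeR, 9 were higher in DESeq2 against 5.04% of tested genes, and with the block Dusp1 and Dusp5, phosphatase genes of MAP kinases named here after their values were seen, were higher (Log2(FC) of 0.60 and 0.45, adjusted p of 0.0461 and 0.0471), against 0.534% of tested genes.

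The 3 with the smallest p were Errfi1, Ctgf and Sik1. Errfi1, which encodes a feedback inhibitor of the EGF receptor, had 154.3 ± 13.6 CPM in FS_CTR and 225.6 ± 25.1 CPM in FS_DSS organoids (SD, n = 4), a Log2(FC) of 0.55 (SE 0.11, edgeR adjusted p = 0.0784). Ctgf, a matricellular protein gene that the study names from these same libraries, had 304.6 ± 19.9 and 581.7 ± 187.6 CPM, a Log2(FC) of 0.93 (SE 0.21, edgeR adjusted p = 0.0791). Sik1, a salt-inducible kinase gene, had 18.9 ± 2.45 and 33.7 ± 8.85 CPM, a Log2(FC) of 0.83 (SE 0.19, edgeR adjusted p = 0.0791). Lower means were found for Socs3, Gadd45g and Crem, with Log2(FC) of -0.46, -0.60 and -0.38, in which FS_CTR replicates 3 and 4 were the highest libraries. Without those libraries the values were 0.02, 0.20 and 0.05.

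Of 21 tested genes known as AP-1 targets, 18 were higher in FS_DSS organoids, with a median Log2(FC) of 0.52, and at an unadjusted p under 0.05 those above numbered 13 and those below 0, again against 10.6% and 13.4%. The list holds genes, Hbegf and Tgfb1 among them, which the paper takes up from these same libraries, so it is not independent of them. At an adjusted p under 0.05, 0 were called by edgeR and 8 were higher in DESeq2, against 5.04% of tested genes. Lif, the gene of a cytokine of the IL-6 family, measured 50.7, 49.1, 42.3 and 42.8 CPM in FS_CTR replicates 1 to 4 and 68.9, 70.4, 83.0 and 99.6 CPM in FS_DSS replicates 1 to 4, with no overlap. Its Log2(FC) was 0.80 (SE 0.13, edgeR adjusted p = 0.0784).

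Ptgs2, which encodes cyclooxygenase-2, measured 170.3, 196.5, 147.6 and 142.0 CPM in FS_CTR replicates 1 to 4 and 271.7, 355.3, 616.3 and 689.1 CPM in FS_DSS replicates 1 to 4. Its Log2(FC) was 1.56 (SE 0.29, edgeR adjusted p = 0.0784), above the Log2(FC) of every member. Mmp14, a membrane-bound matrix metalloproteinase gene, had a Log2(FC) of 0.62 (SE 0.16, edgeR adjusted p = 0.0895). Vegfa, Ccnd1 and Timp1 had Log2(FC) of -0.01, 0.00 and -0.47, with Timp1 at about 1 CPM. Without FS_CTR replicates 3 and 4 these were -0.01, 0.18 and 0.12.

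Of 10 tested other AP-1 and small Maf subunits, 5 had a positive Log2(FC), the median being 0.07, and 1, Fosb, was higher at an unadjusted p under 0.05, against 10.6% of tested genes. Fosb, the remaining FOS subunit, measured 5.80, 4.37, 6.75 and 7.68 CPM in FS_CTR replicates 1 to 4 and 6.51, 8.87, 12.5 and 20.9 CPM in FS_DSS replicates 1 to 4. In Fosb, 3 of the FS_DSS libraries lay above all FS_CTR libraries, and the Log2(FC) was 1.00 (SE 0.35, edgeR adjusted p = 0.141). Atf2 and Atf7, partners of JUN that are regulated mainly as proteins, had Log2(FC) of 0.14 and 0.27, and both had 0.02 without FS_CTR replicates 3 and 4. Batf2, Maff and Maf had Log2(FC) of -0.42, -0.39 and -0.15, and Maff, at 78.7 and 97.6 CPM in FS_CTR replicates 3 and 4 against 30.6 and 43.1 CPM in replicates 1 and 2, stood at 0.37 without the former pair. Without that pair Maf also turned positive, at 0.33, and Batf2 stood at -0.24.

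Of 19 tested upstream kinases and SRF factors, 11 had a positive Log2(FC), with a median of 0.07. At an unadjusted p under 0.05, 2 were higher and 3 lower, shares near the 10.6% and 13.4% of all tested genes. At an adjusted p under 0.05, 0 were called by edgeR. DESeq2 called 1 higher (Elk3) and 1 lower (Mkl1) at that level, and 641 higher and 792 lower among all 12729 tested genes. Elk3, a ternary complex partner of SRF, had 49.2 ± 5.97 and 68.4 ± 8.55 CPM (SD, n = 4), a Log2(FC) of 0.47 (SE 0.12, edgeR adjusted p = 0.0883), with no overlap. Map2k4, a kinase of the JNK pathway, had a Log2(FC) of 0.28. Rps6ka1 and Map2k6 had Log2(FC) of -0.24 and -1.05, and of -0.20 and -1.49 without FS_CTR replicates 3 and 4. Mkl1, a coactivator of SRF, rested on 1 library, at 16.7 CPM in FS_CTR replicate 4 and at most 2.63 CPM in the other 7, and its Log2(FC) of -2.71 became 0.33 without FS_CTR replicates 3 and 4.

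The heat shock genes, another class that responds quickly to stress, had a median Log2(FC) of 0.11 over 15 tested genes, with 12 positive. At an unadjusted p under 0.05 there was 1 above (Bag3) and 1 below (Hspe1), against 10.6% and 13.4% of tested genes. Hspe1, a mitochondrial chaperonin gene, had 66.0 ± 13.6 CPM in FS_CTR and 40.8 ± 6.83 CPM in FS_DSS organoids (SD, n = 4), a Log2(FC) of -0.69 (SE 0.18, edgeR adjusted p = 0.0883, with the block 0.0397, and in DESeq2 0.00887). Bag3, Hspa5 and Hsp90aa1 had Log2(FC) of 0.34, 0.31 and 0.22, and Hsp90ab1 one of -0.01. Without FS_CTR replicates 3 and 4, Bag3 had 0.18, Hspa5 0.10, Hsp90aa1 0.31, Hsp90ab1 -0.13 and Hspe1 -0.46. Hsf1 was listed at 0 in FS_CTR replicate 3 and FS_DSS replicates 2 and 3 and at 1.74 to 6.57 CPM in the other libraries.

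**Figure D4:**
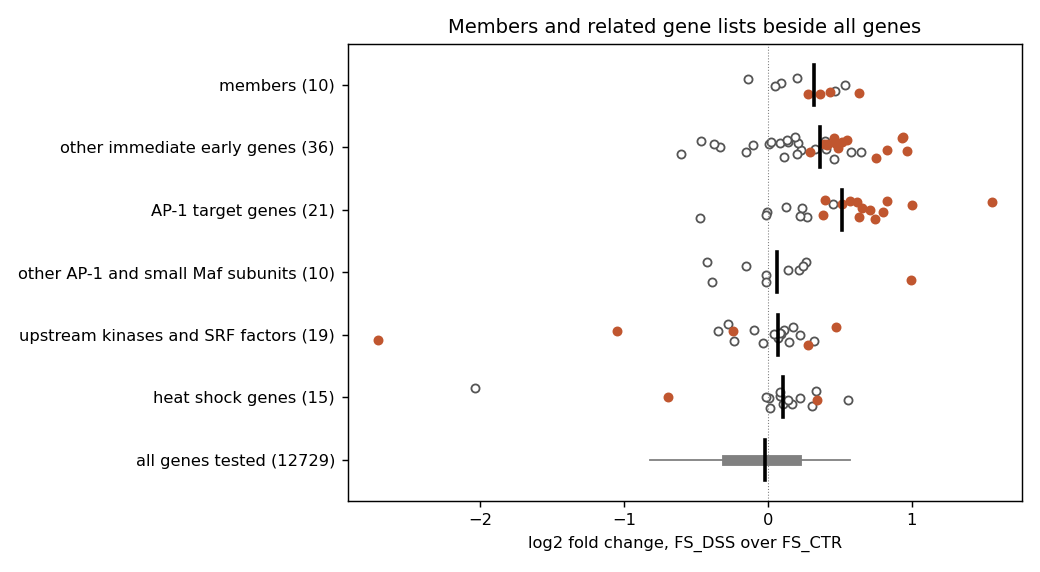
Log2(FC) of FS_DSS over FS_CTR (horizontal axis) of every tested gene in the 10 members and 5 related lists, with filled points for an unadjusted edgeR p under 0.05, open points for the rest, and black lines at the medians. The grey bar spans the 25th to 75th percentile of all 12729 tested genes and the line their 5th to 95th, so that the medians of the members (0.32), the other immediate early genes (0.36) and the AP-1 targets (0.52) can be read against -0.28 to 0.195 for the middle of all genes.

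The genes with the pattern most like that of Fos were found by the root mean square difference between log2 CPM, each gene centred on its own mean over the 8 libraries. They were Slc31a2 at a difference of 0.027, Cdc42se2 at 0.047, F11r at 0.051, and Kat5 and Arf6 at 0.055, while the closest member, Junb, stood at 0.096 and Jun at 0.199. For Fosl1 they were Sqstm1 at 0.064, Stx2 and Dnaja4 at 0.098, Tubb2b at 0.106 and Cntfr at 0.112, while the closest member, Ier3, stood at 0.172. Sqstm1, which encodes the autophagy receptor p62, measured 344.0, 388.1, 451.5 and 475.0 CPM in FS_CTR replicates 1 to 4 and 378.4, 507.4, 633.1 and 771.9 CPM in FS_DSS replicates 1 to 4, the same order of libraries within each condition as Fosl1. Likeness over 8 libraries is a description, and these genes share libraries, depth and scaling with the members.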

How the data were processed

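The authors ran Salmon 1.10.1 on a GRCm39 transcriptome and deposited the estimated counts by gene symbol, without normalization. They were whole numbers, so nothing was rounded. The submitters' processing notes also name DESeq2 1.36.0, which left no trace in these values. The kit was stranded, but whether the counting used strand is not stated in those sources.

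The 10 genes and the related lists were chosen with earlier results of these data known. All 8 libraries were fitted in edgeR 4.0.16 (R 4.3.3) on condition alone and tested by its quasi-likelihood F test, after TMM scaling and the filterByExpr filter, which kept 12729 of 29234 genes, with Benjamini-Hochberg adjustment over the genes kept. The study's thresholds (unadjusted p under 0.05, Log2(FC) of at least 0.58 in size) were counted too. Standard errors are approximate, being the absolute Log2(FC) over root F. A prior count of 2 was used for log2 CPM. The fit was tested on simulated counts.

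All 10 members were named. From each related list, up to 3 genes per direction with the smallest p and a mean of at least 1 CPM were named, and for Fos and Fosl1 the 5 most like genes with a mean of at least 5 CPM. Markers named were 2 of the epithelium (Epcam, Lgr5, Slc26a3, Cdx1 and Cdh1 were added) and leading or absent ones of other cells. Positions, transcripts and sequences came from the GRCm39 genome and its GENCODE annotation, with matches by symbol.

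Alternatives tried were scaling by DESeq2 size factors or by library totals alone, no filter or at least 10 counts in every library, testing with DESeq2 1.42.0 or limma-voom (limma 3.58.1), a block on the replicate number, omission of each library in turn and no fold threshold. Leaving out FS_CTR replicates 3 and 4 together was chosen after seeing the data. Same-numbered libraries deviated together from their group means, with correlations of 0.352, 0.221, 0.154 and 0.226 for numbers 1 to 4, all above a cutoff of 0.1. That cutoff was also passed by FS_CTR replicate 3 with FS_DSS replicate 4 (0.188) and by FS_CTR replicate 2 with FS_DSS replicate 1 (0.142). The numbers were therefore taken as pairs on the data alone, since no source used here says what they stand for. No 2 libraries were alike within sampling noise. The start-site sequence of Egr1, which lies on chromosome 18, was not used here. Its 3′ UTR was among those searched, and the background counts kept the genes of that chromosome. Protein sequences were not used here, and some genes that the naming rule takes are not reported here.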

Additional observations from a re-analysis of the deposited data

Results flagged for a closer look

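In Ier3, FS_CTR replicate 1, at 84.8 CPM, lay far from the other FS_CTR libraries, which measured 101.0 to 103.7 CPM. Its gap to the nearest of them, as a part of the range of the group, was above the critical value of Dixon's test for 4 samples. This was 1 of 20 groups examined (10 genes in 2 conditions), and chance alone passes that value in about 1 group in 20.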

How the results depend on the processing

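Of the 10 members, 0 were higher at an adjusted p under 0.05 in edgeR under all scalings and filters tried, with the replicate number as a block (smallest adjusted p 0.0544, for Junb), in limma-voom and with any 1 library left out, and 2 (Junb and Ier3) in DESeq2, against 5.04% of tested genes. The share of tested genes called higher was 3.9% without FS_CTR replicate 1 and at most 0.0155% without any other single library. It was 0.534% with the block, 0.00786% with library totals alone, and 0.0% in limma-voom and under the other scalings and filters. The count at the study's thresholds was less stable: from 1 it became 6 with library totals alone, 4 with no fold threshold, 2 without FS_CTR replicates 3 and 4 together, and 0 to 2 with 1 library left out (0 without FS_CTR replicate 1 and without FS_DSS replicate 4, 2 without FS_CTR replicate 4 and without FS_DSS replicate 1). The matching share of all tested genes was 2.56% for the count of 1 and 10.6% with no fold threshold. It is not given for the other settings, so their counts cannot be set against it. Library totals alone moved the median of all genes to 0.305, and with it the median of the members from 0.32 to 0.65, of the other AP-1 and small Maf subunits from 0.07 to 0.43, of the other immediate early genes from 0.36 to 0.69, of the AP-1 targets from 0.52 to 0.80, of the upstream kinases and SRF factors from 0.07 to 0.40 and of the heat shock genes from 0.11 to 0.49, and Ier2 turned from -0.14 to 0.22. Above the median of all genes, the members' median was 0.34 with TMM and 0.35 with library totals. Jund ran from -0.07 to 0.18 with 1 library left out, with -0.01 without FS_CTR replicate 2 and -0.03 without FS_DSS replicate 4. The median of the other AP-1 and small Maf subunits was 0.35 without FS_CTR replicates 3 and 4 and -0.03 to 0.13 with 1 library left out, and that of the upstream kinases and SRF factors was 0.04 to 0.10. Apart from the move of library totals, which shifts all genes, the cause of these changes was not tested. Among the results reported, the block changed no other call than those given beside them. The smallest count of a member was 281, so counting depth limits these values less than the spread between libraries does, and for Atf3 that spread left an SE of 0.43.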
